A study of Mus musculus with 6 samples.

Results

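The germline stem (GS) cell is a mouse spermatogonium grown in culture that keeps stem cell activity, and 10 genes best known from embryonic stem (ES) cells were followed in it. The members were taken by gene name from the raw count table, where all 10 of Pou5f1, Sox2, Nanog, Sall4, Klf4, Esrrb, Tfcp2l1, Zfp42, Lin28a and Lin28b had an entry among 32285 genes. The GS cells came from C57BL6/Tg14(act-EGFP-OsbY01) mice, which carry a green transgene, after breeding into the DBA/2 background. They had been derived from testes of pups and grown on mouse embryonic fibroblast feeders with GDNF and FGF2. Frozen cells spent 6 months on the International Space Station (ISS; group Space, 3 libraries) or on Earth (group Ground, 3 libraries), and RNA was taken on the day after thawing, without passage. Both groups therefore share the strain, the transgene, the feeders, freezing and thawing, and no library came from cells that were never frozen. The titles of the libraries name the groups, and the treatment label of each of the 6 libraries says the opposite of its title. The groups below follow the titles, and each direction would turn if the treatment label were right. The study describes its replicates as cell lines, but the labels do not say which libraries share a line or culture, so the p-values measure only the spread between these libraries.

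Library totals lay between 19015985 and 24110916 counts, and the share of mitochondrial transcripts between 2.51% and 11.5%. Markers of spermatogonia were present in every library: the 15 listed genes, among them Dazl, Ddx4 and Zbtb16, summed to between 4069 and 4145 CPM (counts scaled to a common library size, with the TMM factors of edgeR). Markers of fibroblasts, the type of the feeder cells, were present too. The 28 listed fibroblast genes summed to 1138, 1124.5 and 1095 CPM in Ground and to 887.5, 1145 and 1027 in Space (in the order of replicates 1, 2 and 3, as throughout), with Fn1 and Col5a1 contributing most. Of these 28 genes 27 were lower in Space by the fitted value, with a median log2 fold change of -0.32; 6 had an unadjusted p under 0.05 (0.609% of all tested genes did) and none passed the threshold after adjustment. Their part in the results below was not tested. Of 8 macrophage markers 2 passed the filter on low counts, Cd68 (14.03 to 21.98 CPM) and Ptprc (up to 1.04 CPM), while Adgre1, Csf1r, Lyz2, C1qa and C1qb were at or near 0. Of 6 Leydig cell markers 1 passed, Star (3.95 to 5.04 CPM), and Hsd3b1 and Lhcgr had 0 counts. Of 8 Sertoli cell markers 5 passed, led by Wt1 (mean 18.2 CPM) and Sox9 (6.90 CPM), and Fshr had 0 counts. The summed level over the libraries was 14.1 to 22.6 CPM for the macrophage list, 4.16 to 5.04 for the Leydig list and 25.3 to 28.4 for the Sertoli list. In bulk RNA, fewer cells of a type and less RNA per cell cannot be told apart.

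In ES cells, POU5F1 (OCT4) and SOX2 bind DNA as partners and, with NANOG, hold the naive pluripotent state together with KLF4, ESRRB, TFCP2L1 and SALL4, while ZFP42 (REX1) is a widely used marker of that state. LIN28A and LIN28B are RNA-binding proteins that block the maturation of let-7 microRNAs, and let-7 in turn pairs with the messages of both. Spermatogonia carry part of this network without being pluripotent, and Pou5f1, Sall4 and Lin28a are established germ cell genes.

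The let-7 loop is written in the sequences below, shown because they mark where the LIN28 messages can pair with let-7. The mature mouse let-7a from Mirlet7a-1 (RefSeq, GRCm38.p6, chr13:48538239-48538260, minus strand) was:

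let-7a: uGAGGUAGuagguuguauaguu

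The capitals mark the seed, bases 2 to 8. A full match to it in a message reads CTACCTC, 7 letters. These letters were found in 12.0% of the 3' untranslated regions of 13892 tested genes, and the 8 letters CTACCTCA in 4.41%. The longest 3' untranslated region of Lin28a held 2 such sites and that of Lin28b held 4, each given here with the bases before it and 1 base after it (GENCODE M21), with the match in capitals:

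Lin28a site 1: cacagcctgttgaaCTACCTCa
Lin28a site 2: agatcgccacaaacCTACCTCa
Lin28b site 1: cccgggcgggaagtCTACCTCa
Lin28b site 2: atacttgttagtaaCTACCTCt
Lin28b site 3: tttacagcacatggCTACCTCc
Lin28b site 4: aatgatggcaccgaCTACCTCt

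Sall4 and Esrrb held 1 site each, both of 8 letters, and the other 6 members held none. The small RNAs themselves were not measured here, so nothing in these counts shows the level of let-7.

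Promoters are shown for Pou5f1 and Sox2, whose levels moved together over the libraries (below), and for Zfp42. The sequences are 250 bases before and 50 after a RefSeq start (GRCm38.p6, the assembly of mm10) on the gene's own strand, Pou5f1 at chr17:35505782-35506081 (plus strand), Sox2 at chr3:34649745-34650044 (plus strand) and Zfp42 at chr8:43306960-43307259 (minus strand). For Sox2 this start lies before that of the GENCODE gene (chr3:34650405), so the window holds no base of that gene. Capitals mark matches on either strand to the searched letters, except ACAAT. The letters were ATGCAAAT (the octamer), AACAATG (SOX-type), ACAAT (its core, which lies within AACAATG), GGGTGTGG and GGGGCGGGG (KLF-type), CAAGGTCA (ESRRB-type), a pair of CCAG with 6 bases between (TFCP2L1-type), TATAAA and CACGTG:

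Pou5f1: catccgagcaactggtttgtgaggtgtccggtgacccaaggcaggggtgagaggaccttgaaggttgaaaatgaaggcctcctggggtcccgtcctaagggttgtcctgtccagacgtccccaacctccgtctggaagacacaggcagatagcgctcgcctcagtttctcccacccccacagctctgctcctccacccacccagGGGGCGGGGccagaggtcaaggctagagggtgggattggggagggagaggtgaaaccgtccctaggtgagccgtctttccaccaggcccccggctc
Sox2: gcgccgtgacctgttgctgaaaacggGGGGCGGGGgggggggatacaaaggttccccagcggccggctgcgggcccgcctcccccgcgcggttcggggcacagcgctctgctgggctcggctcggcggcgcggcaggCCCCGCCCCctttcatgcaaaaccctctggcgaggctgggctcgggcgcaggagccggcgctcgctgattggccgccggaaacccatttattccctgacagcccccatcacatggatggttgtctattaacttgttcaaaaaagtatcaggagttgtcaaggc
Zfp42: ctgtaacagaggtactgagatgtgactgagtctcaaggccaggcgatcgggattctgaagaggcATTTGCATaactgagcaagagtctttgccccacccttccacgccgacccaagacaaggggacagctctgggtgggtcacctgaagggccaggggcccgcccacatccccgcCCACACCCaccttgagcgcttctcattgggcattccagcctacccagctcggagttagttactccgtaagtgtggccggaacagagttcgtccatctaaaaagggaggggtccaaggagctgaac

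The RefSeq table matched 9 of the 10 members, all but Sall4, with 12 promoter entries. GGGGCGGGG occurred in 3 of the 12 entries, those of Pou5f1, Sox2 and Klf4, and in 11.4% of 32851 promoters. The octamer occurred in 1 of the 12, that of Zfp42, and in 1.74% of all promoters. GGGTGTGG also occurred only in Zfp42 among these entries, against 3.56% of all. AACAATG was found only in the entry for a second start of Pou5f1, inside the gene, against 3.78% of all. ACAAT occurred in 6 of the 12 entries, against 31.0% of all. TATAAA was in 1 of the 12 (13.6% of all) and CACGTG in 2 (7.15% of all). The ESRRB-type and TFCP2L1-type letters were in none of the 12 entries, and in 1.56% and 3.44% of all. A match is a stretch of letters and no measured binding.

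The first question was which of these factors GS cells expressed, and how strongly. Levels are compared between genes as CPM per kilobase of annotated exons. In descending order of the mean over 6 libraries (± SD, n = 6), the level was 66.3 ± 5.94 for Lin28a, 43.4 ± 17.9 for Pou5f1, 31.6 ± 1.37 for Sall4, 18.9 ± 1.03 for Klf4 and 12.7 ± 0.588 for Zfp42. Below these came Sox2 at 8.53 ± 3.84, Lin28b at 5.97 ± 0.485, Tfcp2l1 at 3.31 ± 0.170, Esrrb at 1.29 ± 0.352 and Nanog at 0.0601 ± 0.0574. Among all 15104 tested genes Lin28a stood at percentile 96.1, Pou5f1 at 92.3, Sall4 at 88.3, Sox2 at 61.1 and Esrrb at 26.7. Thus Lin28a, Pou5f1 and Sall4, all established germ cell genes, led the order, and Tfcp2l1, Esrrb and Nanog closed it. The genes of the naive state were split. Sall4 was among the leaders, Klf4 stood at percentile 79.2 and the marker Zfp42 at 70.2, while Tfcp2l1, Esrrb and Nanog were lowest.

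**Figure D1:**
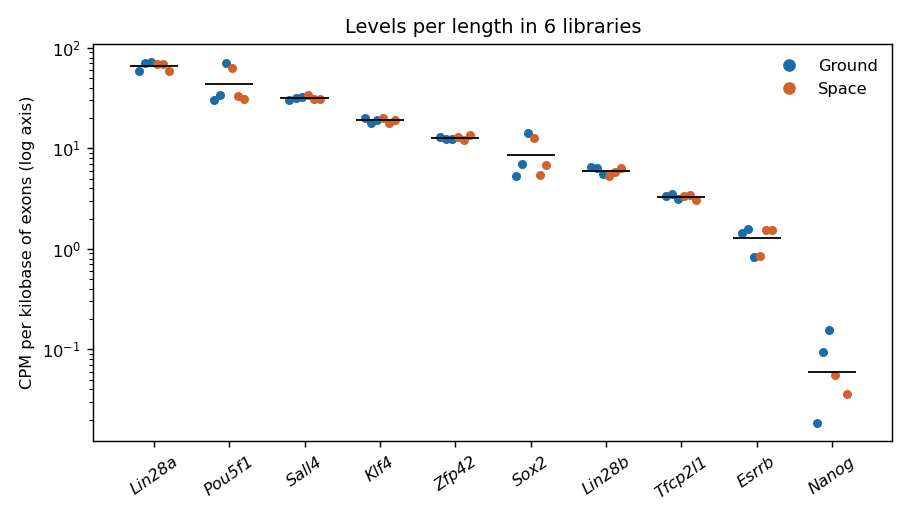
Level of each factor in CPM per kilobase of exons on a log axis, with 1 point per library (blue Ground, orange Space) and a bar at the mean of 6. Pou5f1, Sox2, Esrrb and Nanog are spread widely, the other factors narrowly, and the library of Nanog at 0 counts is not drawn.

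Neighbours in this order were not all apart. The 6 levels of Pou5f1 ran from 30.2 to 70.1 and overlapped those of Lin28a (58.4 to 72.1) and of Sall4 (30.2 to 34.1). Within libraries, Lin28a was above Pou5f1 in 6 of 6 and Pou5f1 above Sall4 in 5 of 6. Sox2 (5.26 to 14.04) overlapped Zfp42 (12.1 to 13.6) and Lin28b (5.29 to 6.45), lying under Zfp42 in 5 of 6 libraries and above Lin28b in 4 of 6. The ranges of Sall4 and Klf4, of Klf4 and Zfp42, of Lin28b and Tfcp2l1, of Tfcp2l1 and Esrrb, and of Esrrb and Nanog did not overlap. With the longest transcript in place of all exons the means were 71.6 for Pou5f1 and 10.02 for Lin28b, which then stood above Sox2. Lin28a was then at 75.6 and Sall4 at 34.4. The ranges and the counts within libraries given above are for all exons and change with that length. The longest transcript has 1362 bases for Pou5f1 and 3505 for Lin28a. Over these lengths Pou5f1 stood above Lin28a in Ground-3 and Space-1. The other ranges and counts were not repeated.

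The second question was whether storage on the ISS changed these factors. None of the 9 members with enough counts for a test was called at an adjusted p under 0.05 in edgeR's quasi-likelihood test, where 0% of the 15104 tested genes were called. At an unadjusted p under 0.05 the count was 0 of 9 members, against 0.609% of all genes (92 genes). Space and Ground libraries overlapped in every one of the 9, against 3.59% of all genes without overlap. The fitted difference was above 0 in 4 members and below 0 in 5, with a median log2 fold change of -0.019 (-0.0020 over all tested genes), and the smallest unadjusted p was 0.509 in edgeR. The adjusted p was 0.9999 for each of the 9. How large a change these libraries leave possible differs from gene to gene, and the values follow by role.

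**Figure D2:**
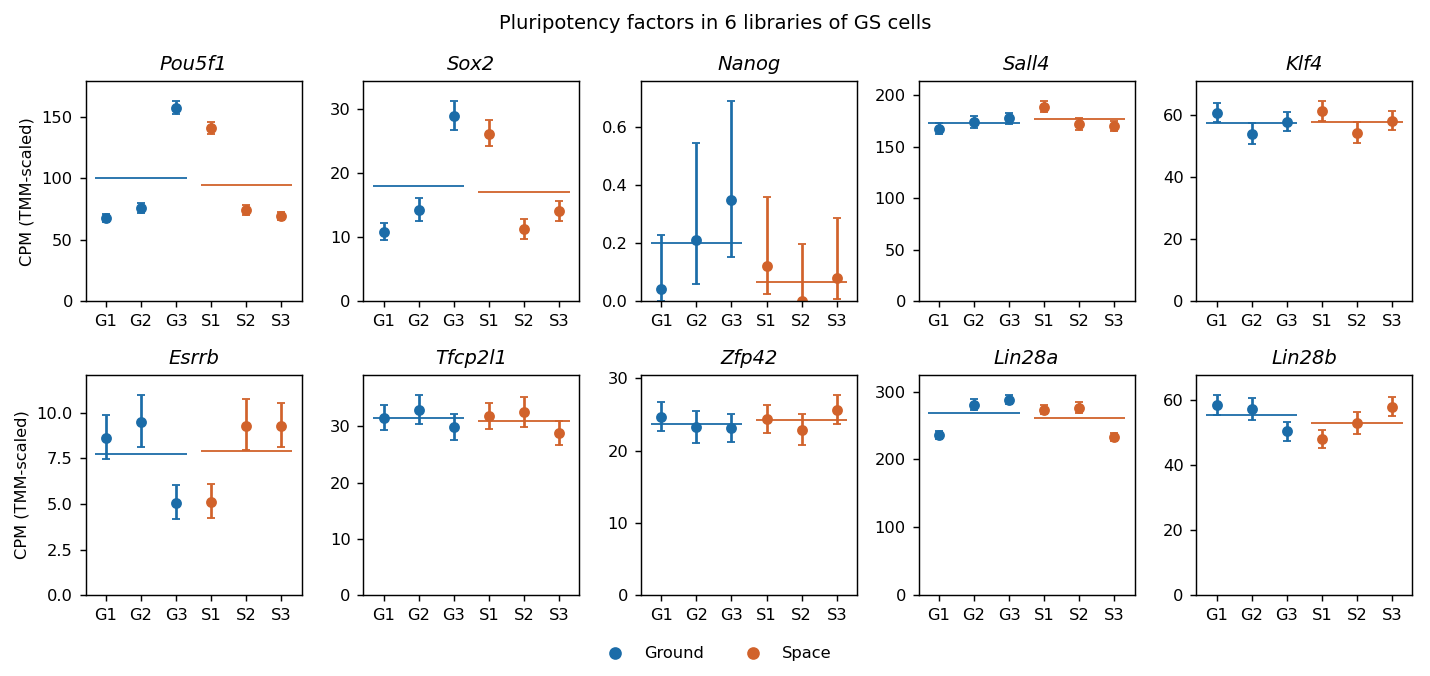
CPM of the 10 factors in the 6 libraries (G1 to G3 Ground, blue, and S1 to S3 Space, orange), each axis starting at 0. Error bars are 95% Poisson intervals for counting error only and horizontal lines are group means. In Pou5f1 and Sox2 the libraries Ground-3 and Space-1 are above the other 4, and in Esrrb below them.

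Pou5f1 (ENSMUSG00000024406, chr17:35506018-35510772), the central POU-domain factor of the network, had 67.9, 75.6 and 157.5 CPM in the Ground libraries and 140.6, 74.3 and 69.6 in the Space libraries. One library of each group was thus high, and the other 4 lay close together. The means were 100.3 ± 49.7 CPM for Ground and 94.8 ± 39.7 for Space (SD, n = 3), with a log2 fold change of -0.08 (SE 0.37, 95% interval -0.95 to 0.79). The interval spans 0.519-fold to 1.72-fold, so a change of either size cannot be told from none here. The spread of Pou5f1 over the libraries, 2.32-fold from lowest to highest, was at percentile 92.6 of all tested genes. Without Ground-3 the log2 fold change was 0.41, against -0.48 without Space-1, and with both left out (chosen after seeing the data) it was 0.0068 (SE 0.083). The antisense gene Gm19553, which overlaps 14.1% of the Pou5f1 exon bases, had at most 2 counts.

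Sox2 (ENSMUSG00000074637, chr3:34650405-34652461), the HMG-box partner of POU5F1 in ES cells, followed the same libraries. It had 10.8, 14.2 and 28.9 CPM in the Ground libraries and 26.1, 11.2 and 13.998 in the Space libraries. As in Pou5f1, Ground-3 and Space-1 were high and the groups overlapped. The counts behind these values ranged from 210 to 659. The means were 18.0 ± 9.60 CPM for Ground and 17.1 ± 7.93 for Space (SD, n = 3), with a log2 fold change of -0.07 (SE 0.42, 95% interval -1.04 to 0.90). Without Ground-3 it was 0.46 and without Space-1 -0.51. Sox2 lies within the long transcript Sox2ot on the same strand, with 0 exon bases shared in the annotation. Sox2ot had 32 counts in Ground-3 and 30 in Space-1 against 13 to 25 in the others.

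Nanog (ENSMUSG00000012396, chr6:122707489-122714633), the homeodomain factor of the ES cell core, was close to absent. It had 1, 4 and 8 counts in the Ground libraries and 3, 0 and 2 counts in the Space libraries, or 18 in all. The 0 in Space-2 allows up to 0.160 CPM, counting error only. The means were 0.202 ± 0.155 CPM for Ground and 0.0678 ± 0.0627 for Space (SD, n = 3), a difference of -0.134 CPM that was not larger than the spread (2-sided exact permutation p = 0.3, smallest possible 0.1). Parts of the Nanog message resemble other transcripts, and the pseudogene copy Nanog-ps1, 97.6% identical over 245 bases, had no entry in the table, so reads this few are uncertain.

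Sall4 (ENSMUSG00000027547, chr2:168748332-168767943), a zinc-finger factor needed by spermatogonia, was the steadiest of the strongly expressed factors. It had 167.2, 173.4 and 177.3 CPM in Ground and 188.5, 171.9 and 169.9 in Space. The highest library was 1.13 times the lowest. The means of 172.6 ± 5.12 and 176.8 ± 10.2 CPM (SD, n = 3) gave a log2 fold change of 0.03 (SE 0.061), and its 95% interval corresponds to 0.928-fold to 1.13-fold. The antisense gene Gm14261, which overlaps 9.50% of the Sall4 exon bases, had 1 to 10 counts.

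Klf4 (ENSMUSG00000003032, chr4:55527143-55532466), a Krüppel-like factor of the reprogramming set that fibroblasts also make, was equally even. Its level was 60.7, 53.9 and 57.9 CPM in Ground and 61.3, 54.2 and 58.2 in Space. Space-1 (95% Poisson interval 58.2 to 64.5 CPM) and Ground-1 (57.7 to 63.9), the highest of each group, were not apart beyond counting error. The intervals of Ground-2 (50.6 to 57.3) and Space-2 (51.0 to 57.7) lay below that of Space-1. The part of the feeder cells in the level of Klf4 was not tested. The log2 fold change was 0.01 (SE 0.076, 95% interval -0.17 to 0.19), that is 0.892-fold to 1.14-fold.

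Esrrb (ENSMUSG00000021255, chr12:86361117-86521628), an orphan nuclear receptor of the naive state, was the weakest member that could be tested. It had 8.60, 9.48 and 5.04 CPM in Ground and 5.11, 9.27 and 9.28 in Space, from 115 to 232 counts. Here Ground-3 and Space-1, the libraries high in Pou5f1 and Sox2, were the low ones. The means were 7.71 ± 2.35 CPM for Ground and 7.89 ± 2.41 for Space (SD, n = 3), and the log2 fold change was 0.03 (SE 0.30, 95% interval -0.67 to 0.74). Leaving out Ground-3 gave -0.19, and leaving out Space-1 gave 0.27.

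Tfcp2l1 (ENSMUSG00000026380, chr1:118627945-118685168), a target of LIF and STAT3 signalling in ES cells, kept to a narrow range, with 31.5, 32.9 and 29.9 CPM in Ground and 31.8, 32.5 and 28.8 in Space. Both groups held values near the top and the bottom of that range. The log2 fold change was -0.02 (SE 0.085), with limits of 0.861-fold and 1.13-fold. Zfp42 (ENSMUSG00000051176, chr8:43295063-43306980), the YY1-related zinc-finger gene whose promoter is printed above, had 24.7, 23.2 and 23.1 CPM in Ground and 24.3, 22.8 and 25.6 in Space. Its log2 fold change was 0.04 (SE 0.087), with limits of 0.892-fold and 1.18-fold. Zfp42 varied 1.12-fold over the libraries in which Pou5f1 varied 2.32-fold. The copy Zfp42-ps1, 98.1% identical to Zfp42 over 266 bases, had no entry in the table.

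Lin28a (ENSMUSG00000050966, chr4:134003330-134018841), the LIN28 gene with 2 let-7 sites above, had 236.5, 281.0 and 288.2 CPM in Ground and 273.6, 276.5 and 233.3 in Space. The lowest library of each group stood apart from its other two. The means were 268.6 ± 28.0 and 261.1 ± 24.2 CPM (SD, n = 3), and the log2 fold change of -0.04 (SE 0.097) had limits of 0.832-fold and 1.14-fold. Lin28b (ENSMUSG00000063804, chr10:45376620-45486395), its paralog with 4 sites, had 58.5, 57.2 and 50.3 CPM in Ground and 48.0, 52.8 and 57.9 in Space. Its log2 fold change was -0.06 (SE 0.094), with limits of 0.822-fold and 1.11-fold. Per kilobase of all exons, Lin28a exceeded Lin28b 9.14-fold to 13.0-fold, most in Ground-3 (13.0) and Space-1 (12.9). Over the longest transcript the means were 75.6 for Lin28a and 10.02 for Lin28b, a smaller ratio. Gm13061, on the strand opposite Lin28a and over 5.86% of its exon bases, had 13 to 28 counts.

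**Figure D3:**
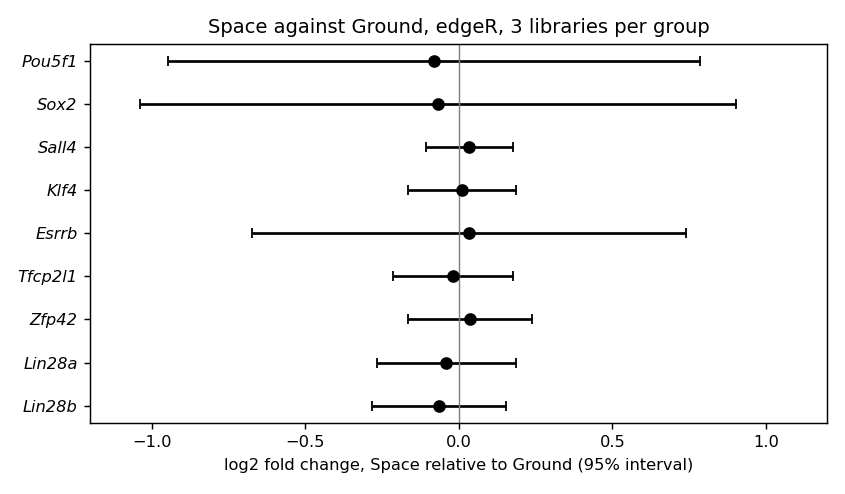
Log2 fold change of the 9 tested factors, Space relative to Ground (3 libraries each), as points with 95% intervals from the edgeR fit. All 9 intervals include 0, and those of Pou5f1, Sox2 and Esrrb are the widest.

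The limits were thus narrow for 6 members and wide for 3. For Sall4, Klf4, Tfcp2l1, Zfp42, Lin28a and Lin28b the 95% intervals lay within 0.822-fold and 1.18-fold. For Pou5f1, Sox2 and Esrrb they reached from 0.487-fold to 1.87-fold. The spread of these 3 genes over the libraries was at percentiles 92.6, 94.6 and 86.4 of all tested genes, and that of the other 6 at percentile 44.5 or lower.

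That variation was shared. Ground-3 and Space-1 were both above the other 4 libraries in Pou5f1, where the lower of the pair had 1.86 times the CPM of the next library, and in Sox2, where it had 1.84 times. They were both below the other 4 in Esrrb, where the next lowest library was 1.68 times higher. These libraries were singled out after the values were seen, so this is a description with no test. By any margin, 23.5% of the 15104 tested genes had both libraries above the other 4, and 23.5% had both below. Among the 9 tested members 3 were above and 2 below, counting Sall4 (1.02 times above) and Lin28b (1.05 times below). By more than 1.5 times, 80 (0.530%) of all tested genes had both libraries above the other 4 and 445 (2.95%) had both below. A larger gap upwards than that of Pou5f1 was seen in 21 genes and than that of Sox2 in 23, and a larger gap downwards than that of Esrrb in 273. The mitochondrial share was 5.69% in Ground-3 and 2.51% in Space-1, within and just below the range of the other 4 (2.81% to 11.5%). The sum of spermatogonial markers was 4069 CPM in Ground-3 and 4126 in Space-1, against 4119 to 4145 in the other 4. Of these 15 markers 4 had both libraries above the other 4 and 4 had both below, 26.7% each. By more than 1.5 times, 1 was below and 1 above. Etv5 had 93.0 and 99.1 CPM against 194.7 to 261.8, and Nanos2 had 12.1 and 11.4 against 4.78 to 6.39. The part of depth, RNA quality or cell makeup in this pattern was not tested.

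**Figure D4:**
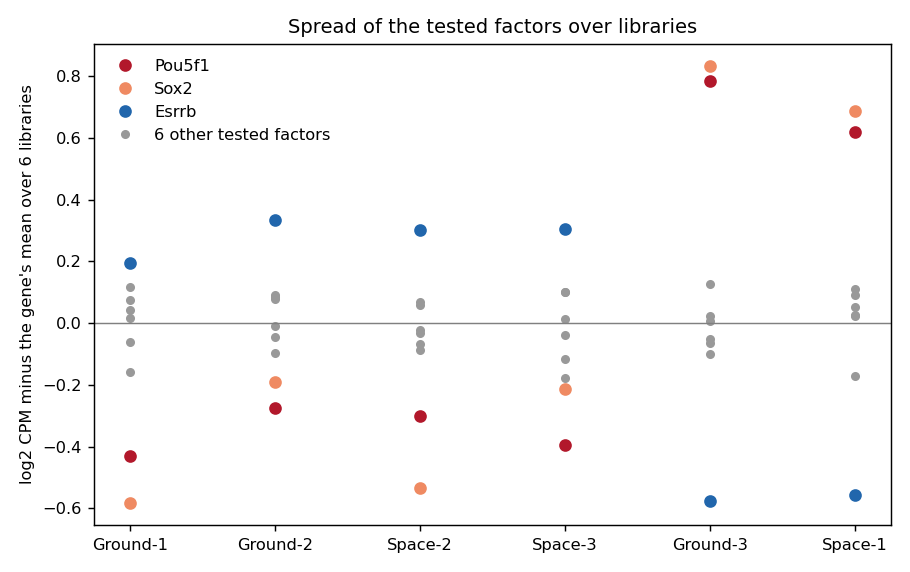
Log2 CPM of the 9 tested factors minus each gene's mean over 6 libraries, with Ground-3 and Space-1 placed at the right after their values were seen. Pou5f1 and Sox2 lie above 0 and Esrrb below 0 in those libraries, the reverse in the other 4, and the 6 other factors (grey) stay near 0 throughout.

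Ratios within a library show the same. Pou5f1 was 6.27, 5.31 and 5.45 times Sox2 in CPM in Ground and 5.38, 6.64 and 4.97 times in Space, a range of only 1.34-fold while each gene alone varied more than that. By contrast, the ratio of Esrrb to Pou5f1 in CPM was 0.0320 in Ground-3 and 0.0363 in Space-1 and between 0.125 and 0.133 in the other 4 libraries. Over the 9 tested members, the closest pair of libraries was Ground-3 with Space-1, one from each group (root mean square log2 difference 0.0985), and the farthest was Ground-1 with Ground-3, of the same group (0.682). The members in which this pair was singled out weigh most in these values. Over all tested genes the closest pair was Ground-1 with Space-3 (0.245), Ground-3 with Space-1 ranked 3 of 15 pairs (0.319), and the farthest was Ground-1 with Space-1 (0.530).

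The genes most like each member were ranked by the root mean square difference of centred log2 CPM over the 6 libraries, among genes of at least 10 CPM. For Pou5f1 they were Pgghg (0.062), Ifitm1 (0.086) and Nptx1 (0.087), and Sox2 took rank 17 of 9509 (0.14). For Sox2 they were Nptx1 (0.12), Mypop (0.14) and Pou5f1 itself at rank 3. Nptx1 had 48.6 CPM in Ground-3 and 46.5 in Space-1 against 20.0 to 23.1 in the other 4. For Esrrb they were Tpp1 (0.065), Dlx3 (0.068) and Abcc8 (0.074), and Dlx3 had 31.6 CPM in Ground-3 and 28.9 in Space-1 against 54.8 to 56.0 elsewhere. No other member was among the 3 genes most like Sall4 (Jade2, Unc119b, Adam17), Klf4 (Slc35d1, Tex261, Sun1), Tfcp2l1 (C2cd5, Specc1l, Mapk9), Zfp42 (Diablo, Prkd1, Hbs1l), Lin28a (Adss, E2f2, Ccdc84) or Lin28b (Rbm15, Homer3, Rmnd5b).

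The wider network was read from 5 lists of 91 genes, of which 76 could be tested. None passed the threshold after adjustment and 0 had an unadjusted p under 0.05 in edgeR, 37 fitted values were above 0 and 39 below, and their median log2 fold change was -0.0023. In 1 of the 76, Dppa5a, the groups did not overlap, against 3.59% of all genes. It was lower in Space, with a log2 fold change of -0.13 (SE 0.099, adjusted p = 0.9999 in edgeR).

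Among 28 other genes of the naive network 21 could be tested, 7 above and 14 below 0, with a median of -0.029. The highest levels per kilobase were those of Trim28, a chromatin corepressor (184), Stat3, the transducer of LIF (46.9), and Dppa4, a chromatin-associated germ cell and ES cell gene (35.04). The fitted log2 fold changes ran from -0.71 in Gdf3 (SE 0.41) to 0.25 in Foxd3 (SE 0.49), both with a mean under 1 CPM. The naive factors Nr0b1 and Prdm14 and the ligand Fgf4 had at most 0.124 CPM in any library, and Zscan4c had 0 counts in all. Levels in the LIF and BMP pathway ran from 0.192 CPM per kilobase in Id2 to 88.3 in Socs3, with Jak1 at 55.7 and Id1 at 18.9 next to the top. Of its 11 genes 4 were above and 7 below 0, from -0.65 in Id2 (SE 0.42) to 0.05 in Smad1 (SE 0.079).

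Genes of the primed, epiblast-like state ranged from strongly expressed to undetected. Pou3f1 (42.1 CPM per kilobase), Sox3 (40.4) and the DNA methyltransferase gene Dnmt3b (26.3) led the 9 that could be tested. T (7.94 CPM on average), Eomes (1.83), Zic2 (1.22) and Nodal (0.650) lay lower, while Fgf5 had 0 counts and Otx2, Lefty1, Lefty2 and Cer1 stayed at or below 0.160 CPM. Of these 9 genes 3 were above and 6 below 0, from -0.62 in Zic2 (SE 0.66) to 0.37 in Nodal (SE 0.38). Among relatives of the members, 12 of 19 tested genes were above and 7 below 0, from -0.27 in Sox15 (SE 0.34) to 0.59 in Esrrg (SE 0.61). Sox4 (36.7 CPM per kilobase) and Klf10 (28.5) were among the most strongly expressed of them. Sox3, a close relative of Sox2, had a mean of 40.4 CPM per kilobase against 8.53 for Sox2 itself.

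Around LIN28, the machinery that makes and decays let-7 and the targets of let-7 passed the filter on low counts in full. Of these 16 genes, 11 were above and 5 below 0, with a median log2 fold change of 0.025. Hmga1 (74.5 CPM per kilobase), the nuclease gene Drosha (73.7) and Trim71 (44.5), a germ cell and ES cell target of let-7, were highest. The 3' untranslated region of Trim71 held 4 of the 8-letter sites and that of Igf2bp1 held 3. Hmga2, with 4 sites of 7 letters, had 2.85 CPM on average and the lowest fitted value, -0.57 (SE 0.35), and Trim71 the highest, 0.07 (SE 0.12). Neither passed the threshold in edgeR.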

How the data were processed

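Poly(A) RNA of GS cells was sequenced in 6 libraries. What the authors deposited is a single table of unnormalized read counts by gene, in whole numbers, with 1 column per library. The study's methods state trimming with cutadapt and alignment with HISAT2 to mm10 and GENCODE M21, and the submitters' processing notes add HTSeq 2.0.2; strand setting and handling of overlapping genes are not given in the sources used here. Labels and methods name different kits and sequencers. Libraries were grouped by title.

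The main test of the counts was that of edgeR 4.0.16 under R 4.3.3 (filterByExpr, TMM scaling, 2-sided quasi-likelihood F test, Benjamini-Hochberg adjustment over 15104 genes, threshold 0.05). A check on simulated counts gave every gene the same spread beyond counting error. It does not cover genes as variable as Pou5f1, Sox2 and Esrrb. The SE was the fold change divided by the square root of F. Levels per kilobase used GENCODE M21 exons. Intervals for counts are 95% Poisson intervals, and intervals and limits (3 counts) cover counting error only. DESeq2 1.42.0, limma-voom, other scalings and filters, a replicate block and each library left out were alternatives. Similar transcripts were searched with BLAST 2.17.0.

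The named genes are the members, the extremes and the 3 highest levels of each list, listed markers, the 3 genes most like each member, and annotated overlaps or copies; other genes were chosen after their values were seen. A listed gene that this rule selects is not reported here. Members and lists were chosen with earlier results of these data known.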

Additional observations from a re-analysis of the deposited data

How the results depend on the processing

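The number of genes passing the threshold was 0 for the 9 members, for the 76 related genes and for all genes in the main test and under each of the 15 alternatives. At an unadjusted p under 0.05 the count over all genes was 45 to 192 under 9 alternatives and 64 to 161 with a library left out; it stayed 0 for the members and reached at most 3 for the related genes. With a replicate block 0 genes passed, and the members' log2 fold changes kept their direction (-0.051 for Pou5f1). Same-numbered libraries deviated together in only 1 of 3 pairs (correlations -0.54, 0.33 and -0.61), so the numbers were not taken as a pairing. The direction turned for Tfcp2l1 with total counts (0.015) and, with Ground-3 and Space-1 left out together, an alternative chosen after seeing the data, for Pou5f1 (0.0068), Sox2 (0.020) and Klf4 (-0.026); none of these values passed the threshold before or after, and the cause was not tested. With each library left out, the log2 fold change ranged from -0.48 to 0.41 for Pou5f1, -0.51 to 0.46 for Sox2, -0.19 to 0.27 for Esrrb, -0.015 to 0.063 for Sall4, -0.033 to 0.055 for Klf4, -0.053 to 0.033 for Tfcp2l1, -0.0049 to 0.079 for Zfp42, -0.12 to 0.035 for Lin28a and -0.14 to 0.00090 for Lin28b. The difference of Nanog ranged from -0.214 to -0.0592 CPM. Measured over the longest transcript, levels per kilobase became 71.6 for Pou5f1, 34.4 for Sall4, 1.81 for Esrrb, 75.6 for Lin28a and 10.02 for Lin28b, because that length is shorter than all exons together.

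Depth limits Nanog, with 18 counts in all. For Pou5f1, Sox2 and Esrrb the spread between libraries sets the width of the intervals.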

Other observations

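Some listed genes outside the 10 factors were high or low in the same pair of libraries, Ground-3 and Space-1. They were picked after their values were seen and carry no test. Sall1, a relative of Sall4, had 166.0 CPM in Ground-3 and 177.9 in Space-1 against 73.7 to 87.2 in the other 4, and Nanos2, a gene of undifferentiated spermatogonia, had 12.1 and 11.4 against 4.78 to 6.39. Zic2 had 2.72 and 1.85 CPM against 0.440 to 0.905. In the other direction, Etv5, a transcription factor induced by GDNF, had 93.0 CPM in Ground-3 and 99.1 in Space-1 against 194.7 to 261.8. The receptor gene Gfra1, which binds GDNF, had 100.4 and 101.3 CPM against 141.1 to 148.6, and T (brachyury) had 4.52 and 3.95 against 7.30 to 13.0. Gbx2, a naive-state factor, had 0.614 and 0.741 CPM against 1.71 to 2.80. Ret, the partner of Gfra1 in the receptor for GDNF, had 401.4 and 403.3 CPM against 400.7 to 457.9. Of the 76 tested genes of the 5 lists, 2 had both libraries more than 1.5 times above the other 4 and 3 more than 1.5 times below, against 0.530% and 2.95% of all tested genes. Etv5, Gfra1, Ret and Nanos2 belong to the separate list of 15 spermatogonial markers, where 1 was above and 1 below by that margin. By any margin 4 of these 15 were above and 4 below (26.7% each), against 23.5% of all tested genes in each direction.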
